A study of Mus musculus with 30 samples.

Results

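Chemokines are small secreted proteins that direct the movement of white blood cells, and fibroblasts are one of the cell types that make them. The 9 genes described here, Ccl2, Ccl5, Ccl7, Ccl9, Cxcl1, Cxcl5, Cxcl10, Cxcl12 and Cx3cl1, were taken by name from the chemokine ligand genes, and all 9 were found among the 36047 mouse genes whose transcripts were quantified. Total RNA was sequenced from NIH3T3-CG cells, a line of mouse embryonic fibroblasts whose suffix the labels leave unexplained. There were 10 groups of 3 libraries, and no group was made from any other line. In the transduction experiment, cells carrying a Prrx1 construct were compared with doxycycline and with no doxycycline, so both groups held the construct. In the transfection experiments, a Prrx1 plasmid and a Snai1 plasmid were each set against the same control plasmid libraries. An Egr1 plasmid and a Jun plasmid likewise shared another set of controls. A Srebf2 plasmid had controls of its own. The labels do not give the promoter of any construct, the share of cells that took it up, the dose or the time, and nothing states whether replicates were separate cultures, so a p-value here is set against library-to-library spread that could be purely technical. The series is about transcription factors and the variable Hedgehog response of single cells, and the factors were delivered one at a time.

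Chemokines are grouped by the spacing of their first cysteines into CC, CXC and CX3C families. They bind glycosaminoglycans on cell surfaces and matrix, which holds them near the cells that made them, and they signal through G protein-coupled receptors on white blood cells. Ccl2 and Ccl7 attract monocytes through Ccr2, and Ccl9, known in the mouse, acts through Ccr1. Cxcl1 and Cxcl5 attract neutrophils through Cxcr2. Ccl5 draws T cells and monocytes, and Cxcl10 is induced by interferon and draws activated T cells through Cxcr3. Cxcl12 holds stem and precursor cells in place through Cxcr4 and is scavenged by Ackr3. Cx3cl1 is made as a membrane-anchored protein that binds Cx3cr1 and is shed by the proteases Adam10 and Adam17. Many of these genes are targets of NF-kB and AP-1 in stimulated fibroblasts.

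Libraries held 7996355 to 17129632 estimated counts in the transduction experiment and 18020141 to 37068611 in the transfection experiments. Levels are given as CPM (estimated counts scaled to equal library totals), and between genes as TPM of protein-coding transcripts, which also allows for length. Each delivered factor rose in its own comparison, with edgeR's quasi-likelihood test. Prrx1 rose 3.86-fold with doxycycline and 27.5-fold with the plasmid, Snai1 123-fold, Egr1 9.53-fold, Jun 22.1-fold and Srebf2 4.20-fold. Of 12 fibroblast markers, 11 were expressed and Fap was at 0 in 11 libraries, but Dcn was 1.18 to 4.62 CPM in the 6 transduction libraries and 95.6 to 315 CPM in the 24 transfection libraries. Lum was likewise 0.0910 to 1.30 CPM in the transduction libraries and 11.6 to 72.6 CPM in the transfection libraries. The 12 immune cell markers summed to 17.3 to 48.9 CPM, with Cd14 at 3.43 to 24.8 CPM and Lyz2 at 2.57 to 15.7 CPM. The macrophage marker Adgre1 was at 0 in 20 of 30 libraries, but Cd14, Lyz2, Cd68, Csf1r and Aif1 were detected in all 30. The 5 endothelial markers summed to 18.2 to 26.9 CPM in the transduction libraries and to 2.92 to 6.07 CPM in the transfection libraries. Only 1 of the 5 reached a mean of 5 CPM in any group, Pecam1, with up to 22.8 CPM in a library. Cdh5, Kdr, Tek and Vwf reached at most 3.59, 1.02, 0.980 and 3.77 CPM. The third Egr1 library stood apart with 159 CPM of 5 epithelial markers, against 0 to 14.7 CPM in the 29 others. The single-gene Egr1 results named below are also given without it. In bulk RNA, fewer cells making a transcript and less transcript per cell cannot be told apart.

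Most of the genes lie near other chemokine genes on the mouse genome (GRCm38, GENCODE M21). On chromosome 11, Ccl2 (chr11:82035571-82037453, plus strand) and Ccl7 (chr11:82045712-82047525, plus strand) are neighbours 8258 bases apart. Ccl5 (chr11:83525778-83530518, minus strand) and Ccl9 (chr11:83572919-83578636, minus strand) are separated by 42400 bases. On chromosome 5 lie Cxcl5 (chr5:90759360-90761624, plus strand), Cxcl1 (chr5:90891241-90893115, plus strand) and Cxcl10 (chr5:92346638-92348889, minus strand). Cxcl12 is on chromosome 6 (chr6:117168535-117181367, plus strand), with no chemokine gene beside it, and Cx3cl1 on chromosome 8 (chr8:94772009-94782427, plus strand). Next to some expressed members lay chemokine genes that were hardly detected. Ccl11, 10297 bases beyond Ccl7, reached at most 0.592 CPM in any library, Ccl6, 9245 bases from Ccl9, reached 0.529 CPM, and Cxcl2, 10755 bases from Cxcl1, reached 0.0567 CPM. Other neighbours were higher. Ppbp, 6893 bases from Cxcl5, reached 1.58 CPM, and Ccl17, 28025 bases from Cx3cl1, reached 3.18 CPM (median 1.51).

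Promoter sequence is shown for Ccl9, Cxcl1 and Cxcl10, the members with a motif match among the 5 with a window. Ccl9 had the largest change, and Cxcl10 held the most matches and was among the lowest in level. Doxycycline and no doxycycline libraries did not overlap for Cxcl1, nor for Cx3cl1, whose window held no match and is not shown. Each line gives the 250 bases before the RefSeq start in GRCm38.p6, 5′ to 3′ on the gene's strand, with motif matches in capitals. They cover chr11:83578637-83578886 (minus strand), chr5:90890995-90891244 (plus strand) and chr5:92348890-92349139 (minus strand).
Ccl9: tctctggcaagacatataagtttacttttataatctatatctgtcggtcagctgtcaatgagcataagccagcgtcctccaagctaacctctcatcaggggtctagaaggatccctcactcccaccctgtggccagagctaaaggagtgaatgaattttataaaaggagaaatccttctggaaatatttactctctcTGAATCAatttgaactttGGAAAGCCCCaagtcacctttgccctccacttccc
Cxcl1: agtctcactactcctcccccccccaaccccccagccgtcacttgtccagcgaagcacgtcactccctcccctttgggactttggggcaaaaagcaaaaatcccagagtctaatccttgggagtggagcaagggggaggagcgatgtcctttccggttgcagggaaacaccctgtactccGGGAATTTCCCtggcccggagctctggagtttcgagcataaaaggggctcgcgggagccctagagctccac
Cxcl10: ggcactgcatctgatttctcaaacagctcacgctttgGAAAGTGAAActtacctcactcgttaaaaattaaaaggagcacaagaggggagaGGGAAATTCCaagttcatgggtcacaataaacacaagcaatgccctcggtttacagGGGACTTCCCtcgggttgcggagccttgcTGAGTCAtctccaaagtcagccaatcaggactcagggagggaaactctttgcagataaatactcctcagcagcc
In Ccl9 the capitals mark an AP-1 match (TGANTCA), 53 bases before the start, and a match to the NF-kB motif 35 bases before it, on the opposite strand. In Cxcl1 they mark 2 overlapping NF-kB matches, 1 on each strand, at 71 and 70 bases before the start. In Cxcl10 they mark an interferon-stimulated response element (TTTC, any 2 bases, TTTC) at 213 bases, NF-kB matches at 159 and 103 bases and an AP-1 match at 74 bases. Of 32851 promoter windows of the same length, 3.9% held the NF-kB motif, 6.75% the AP-1 motif and 2.98% the interferon-stimulated response element, on either strand. AP-1, of which the delivered factor Jun is a subunit, was thus matched in 2 of the 5 members' windows. The letters searched for the other 4 delivered factors were in none of the 5, namely TAATTA for Prrx1 (4.84% of all windows), CACCTG for Snai1 (17.2%), GCGNGGGCG for Egr1 (4.7%) and TCACNCCAC for Srebf2 (1.05%). The Gli letters GACCACCCA (0.225%) were also in none, and Cxcl12 and Cx3cl1 held no match to any of the motifs. The windows are from RefSeq, which was matched for 5 of the 9 members; Ccl2, Ccl5, Ccl7 and Cxcl5 had none. A match is a description of letters and not of binding.

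Among protein-coding transcripts, the monocyte attractants Ccl2 and Ccl7 made up most of the chemokine RNA. Summed over coding TPM, Ccl2 and Ccl7 together held 72.3 to 94.6% of the 9 genes' total (median 90.9%), and Ccl2 was the highest of the 9 in 29 of 30 libraries. In the remaining library, a no doxycycline one, Ccl7 was the highest. This order depends on leaving out non-coding transcripts. With all transcripts summed, Ccl9 averaged 80.8 ± 35.7 TPM with no doxycycline, above Ccl2 (46.5 ± 9.61) and Ccl7 (41.6 ± 1.62; SD, n = 3 each). With doxycycline Ccl9 averaged 18.1 ± 3.30 TPM on that measure, below Ccl2 (79.7 ± 6.32) and Ccl7 (54.5 ± 7.24). In coding TPM, the 9 genes summed to 108 to 164 in the 6 transduction libraries and to 405 to 653 in the 24 transfection libraries. Every transduction library was thus below every transfection library, but route, experiment and depth cannot be told apart, the part of the Dcn, Lum and endothelial marker differences was not tested, and no test was made across experiments.

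**Figure D1:**
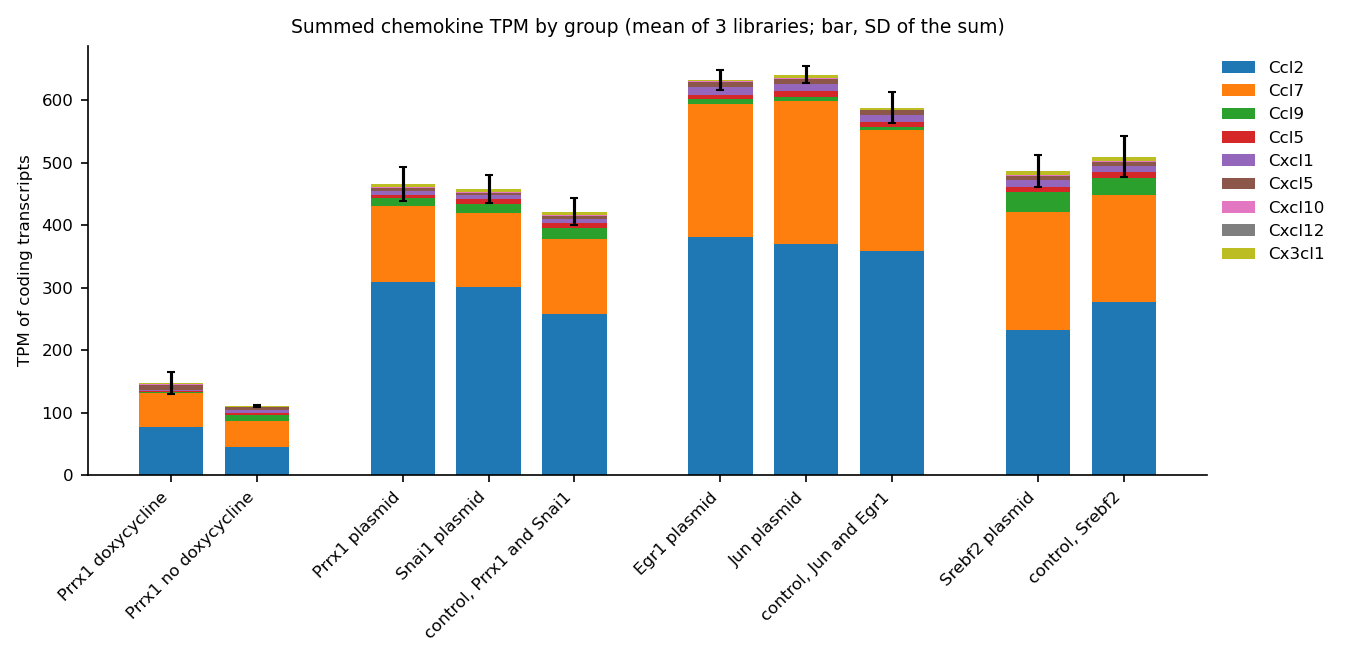
Summed coding TPM of the 9 chemokine genes in each group (bar height, mean of 3 libraries; error bar, SD of the sum), with each gene's mean as a coloured segment. The Ccl2 and Ccl7 segments fill most of every bar, and the transduction bars, at 147 TPM with doxycycline and 110 TPM without, stand below all 8 transfection bars.

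Ccl2 had 37.1, 36.2 and 32.3 CPM with doxycycline, against 22.3, 25.3 and 17.0 CPM with no doxycycline. All doxycycline libraries were above all others of that experiment. It had 141, 120 and 138 CPM with the Prrx1 plasmid and 139, 123 and 134 CPM with the Snai1 plasmid, against 129, 105 and 106 CPM in their controls, where the first control lay within both plasmid groups. With the Egr1 plasmid it had 156, 144 and 161 CPM and with the Jun plasmid 146, 147 and 148 CPM, against 153, 145 and 168 CPM in their controls. These 3 groups overlapped. It had 115, 99.6 and 101 CPM with the Srebf2 plasmid, against 137, 121 and 124 CPM in its controls, so that every Srebf2 library was below every control.

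Ccl7, the neighbour of Ccl2 with the same receptor, had 24.4, 25.3 and 19.8 CPM with doxycycline, against 19.97, 17.0 and 18.6 CPM with no doxycycline, and these overlapped by a small margin. Its means were 50.1 ± 1.60 CPM with the Prrx1 plasmid, 49.7 ± 3.60 CPM with the Snai1 plasmid and 49.5 ± 3.60 CPM in their controls (SD, n = 3 each). They were 82.2 ± 7.66 CPM with the Egr1 plasmid, 86.8 ± 1.81 CPM with the Jun plasmid and 80.1 ± 5.32 CPM in their controls. With the Srebf2 plasmid Ccl7 averaged 76.1 ± 9.27 CPM, against 71.2 ± 2.76 CPM in controls. No plasmid group lay outside its control range in all libraries. The experiments themselves differed in Ccl7, with the 9 libraries of the Prrx1 and Snai1 experiment at 45.9 to 53.5 CPM and the 9 of the Egr1 and Jun experiment at 75.8 to 90.7 CPM.

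Ccl9 varied most between groups, 9.26-fold between the highest and the lowest mean. It had 7.04, 7.18 and 6.40 CPM with doxycycline, against 24.3, 40.4 and 33.0 CPM with no doxycycline, and the groups lay far apart. It had 27.3, 31.9 and 23.9 CPM with the Prrx1 plasmid and 32.1, 35.2 and 30.96 CPM with the Snai1 plasmid, against 34.1, 33.2 and 36.3 CPM in their controls. All Prrx1 plasmid libraries were below the controls, while the Snai1 plasmid libraries overlapped them. Ccl9 was 12.4 to 17.0 CPM over all 9 libraries of the Egr1 and Jun experiment. With the Srebf2 plasmid it had 58.6, 62.3 and 69.9 CPM, against 55.9, 59.8 and 61.1 CPM in controls. In order of means, doxycycline was lowest, followed without overlap by the 3 groups of the Egr1 and Jun experiment, then by the Prrx1 plasmid, no doxycycline, Snai1 plasmid and Prrx1 and Snai1 control groups, which overlapped with their neighbours, and then by the Srebf2 control and Srebf2 plasmid groups.

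**Figure D2:**
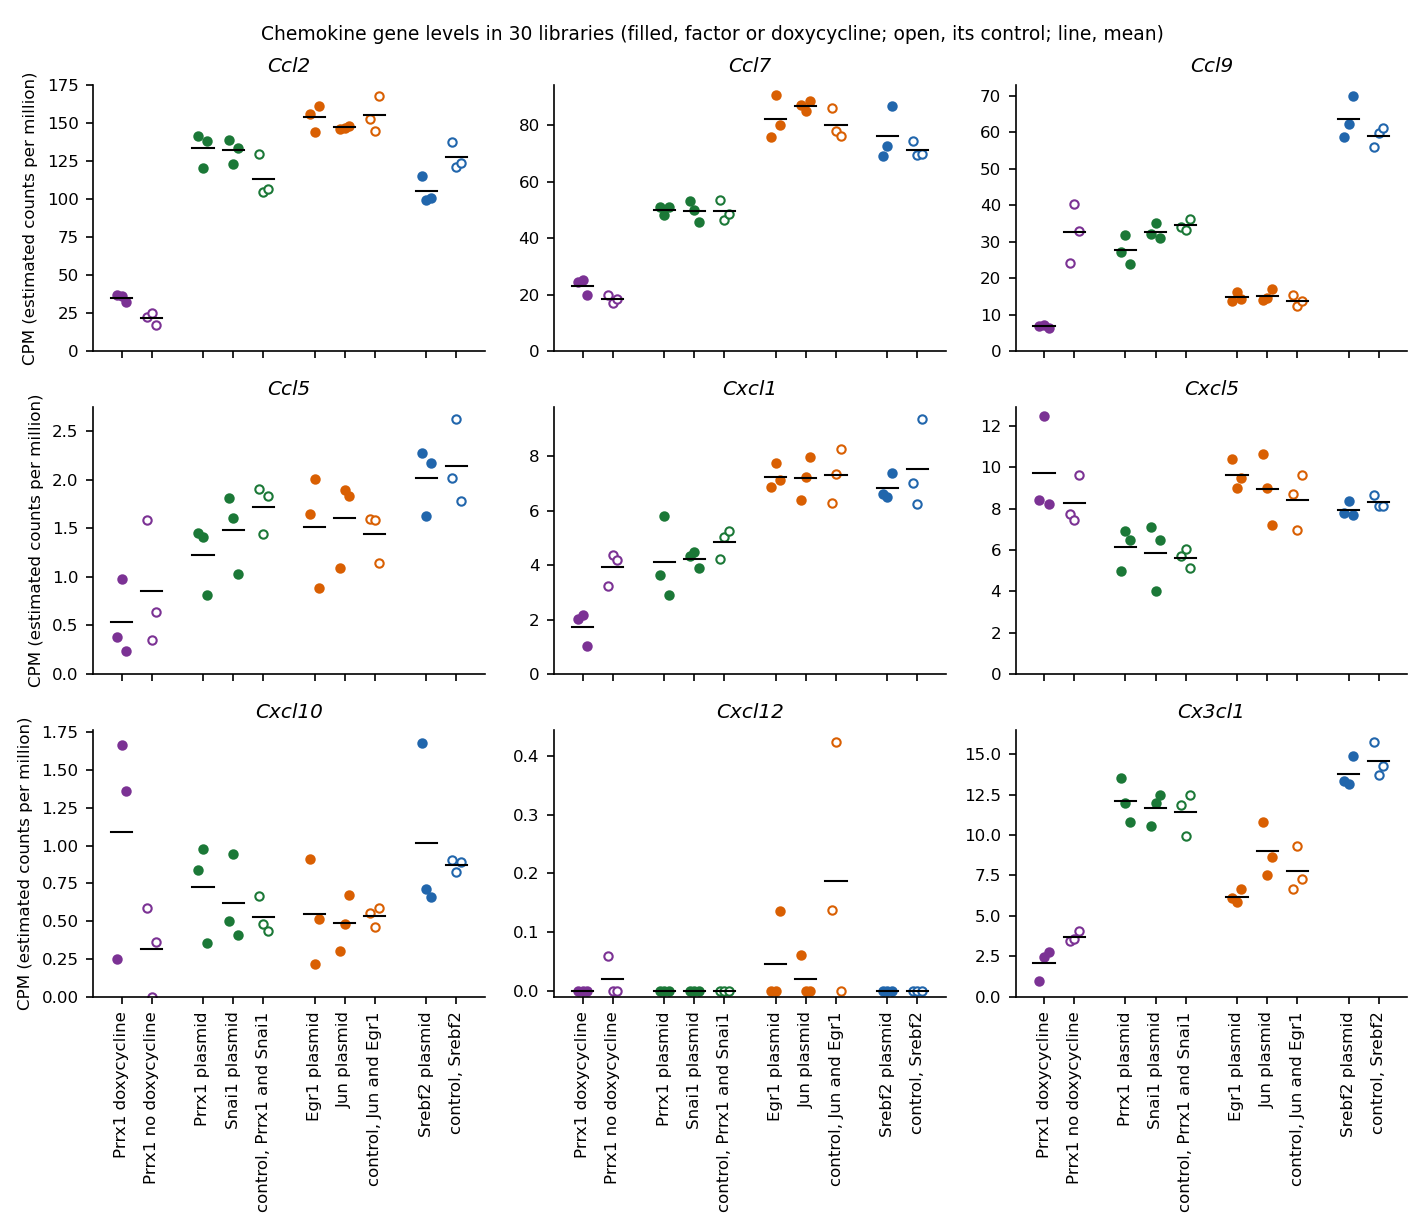
CPM of each chemokine gene in each of 30 libraries (1 panel a gene, linear axis from about 0; filled points, factor or doxycycline; open points, the control of that experiment; line, mean of 3). Ccl9 is at 6.40 to 7.18 CPM with doxycycline, below the other 27 libraries, and Ccl2, Ccl7 and Cx3cl1 are lower in all 6 transduction libraries than in any transfection library.

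The neutrophil attractants were present at low levels. Cxcl1 had 2.01, 2.16 and 1.04 CPM with doxycycline, against 3.23, 4.38 and 4.18 CPM with no doxycycline, and these did not overlap. In the transfection experiments Cxcl1 overlapped its controls in every comparison, at 2.89 to 5.80 CPM in the Prrx1 and Snai1 experiment, 6.27 to 8.28 CPM in the Egr1 and Jun experiment and 6.23 to 9.38 CPM in the Srebf2 experiment. Cxcl5 was the most even member, with group means that differed at most 1.72-fold and 4.01 to 12.5 CPM over all libraries. In coding TPM, Cxcl5 was above Cxcl1 in 5 of the 6 transduction libraries and in 1 of the 24 transfection libraries. The Cxcl5 to Cxcl1 ratio of coding TPM was 4.48 ± 1.5 with doxycycline and 1.21 ± 0.43 with no doxycycline (SD, n = 3 each), and 0.591 to 0.797 in the means of the other 8 groups. The doxycycline ratio rests on few counts, since Cxcl1 had 16, 22 and 13 counts there. In the transduction libraries a non-coding transcript, left out of the ratio, took 20.2 to 75.6% of the Cxcl1 counts and 8.46 to 74.9% of the Cxcl5 counts.

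Cx3cl1, the membrane-anchored member, had 1.01, 2.45 and 2.80 CPM with doxycycline, against 3.47, 3.55 and 4.09 CPM with no doxycycline. It was 9.94 to 13.5 CPM in the 9 libraries of the Prrx1 and Snai1 experiment and 13.2 to 15.8 CPM in the 6 of the Srebf2 experiment. With the Egr1 plasmid it had 6.10, 5.84 and 6.63 CPM and with the Jun plasmid 10.8, 7.53 and 8.62 CPM, against 6.68, 9.30 and 7.26 CPM in their controls. The Egr1 plasmid libraries were the 3 lowest of these 9, and the Jun plasmid libraries overlapped the controls.

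The T cell attractants had few counts. Ccl5 was detected in all 30 libraries, with 3 to 74 counts and 0.240 to 2.63 CPM, and per length its median of 7.47 coding TPM was above those of Cxcl5 (6.10) and Cx3cl1 (5.0). Cxcl10 had 0 to 1.68 CPM, with 2, 17 and 17 counts in the doxycycline libraries, against 10, 0 and 4 counts in the no doxycycline libraries. The library at 0 allows up to 0.355 CPM, taking 3 counts as the limit that a count of 0 allows. Cxcl12 had 24 counts in all 30 libraries, was at 0 in 25 of them (which allows up to 0.0815 to 0.377 CPM, depending on depth), and had 12 of its counts in 1 control library of the Egr1 and Jun experiment. That library also had the highest level of the macrophage gene Lyz2, at 15.7 CPM (67.2% of its 31-base stretches are unique to it), and their relation was not tested. These intervals cover counting error only. Cxcl12 passed the filter on low counts in no comparison, and Ccl5 and Cxcl10 did not pass it in the transduction experiment.

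With doxycycline the monocyte attractants Ccl9 and Ccl2 changed in opposite directions. Ccl9 fell 4.77-fold (log2 fold change −2.25 ± 0.19 SE, edgeR adjusted p = 2.54e-05), with means of 6.87 ± 0.416 CPM with doxycycline and 32.6 ± 8.07 CPM with no doxycycline. Ccl2 rose 1.61-fold (0.69 ± 0.15, adjusted p = 0.0203), at 35.2 ± 2.52 CPM with doxycycline and 21.5 ± 4.21 CPM with no doxycycline. These were 2 of 6 members tested, where 6.19% of all 13633 genes tested were called. The groups did not overlap for 4 of the 6, namely Ccl2, Ccl9, Cxcl1 and Cx3cl1, against 25.1% of all genes tested. Cxcl1 (log2 fold change −1.21 ± 0.39, adjusted p = 0.108) and Cx3cl1 (−0.81 ± 0.41, adjusted p = 0.318) were not called by edgeR. Ccl7 differed by 0.29 ± 0.15 (adjusted p = 0.327) and Cxcl5 by 0.21 ± 0.23 (adjusted p = 0.684). The median log2 fold change was −0.30 over the 6 members and −0.01 over all genes tested. In coding TPM, Ccl9 made up 1.57% of the 9 genes' total with doxycycline and 9.66% with no doxycycline. Ccl2 was no longer called when any 1 doxycycline library or the third no doxycycline library was left out (adjusted p 0.0608 to 0.103), or with limma on TPM, whereas Ccl9 was called in all 15 alternatives (−2.41 to −2.02). In a fit of all 30 libraries Cxcl1 and Cx3cl1 were called as well, both lower, where 2728 genes were called in place of 844.

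**Figure D3:**
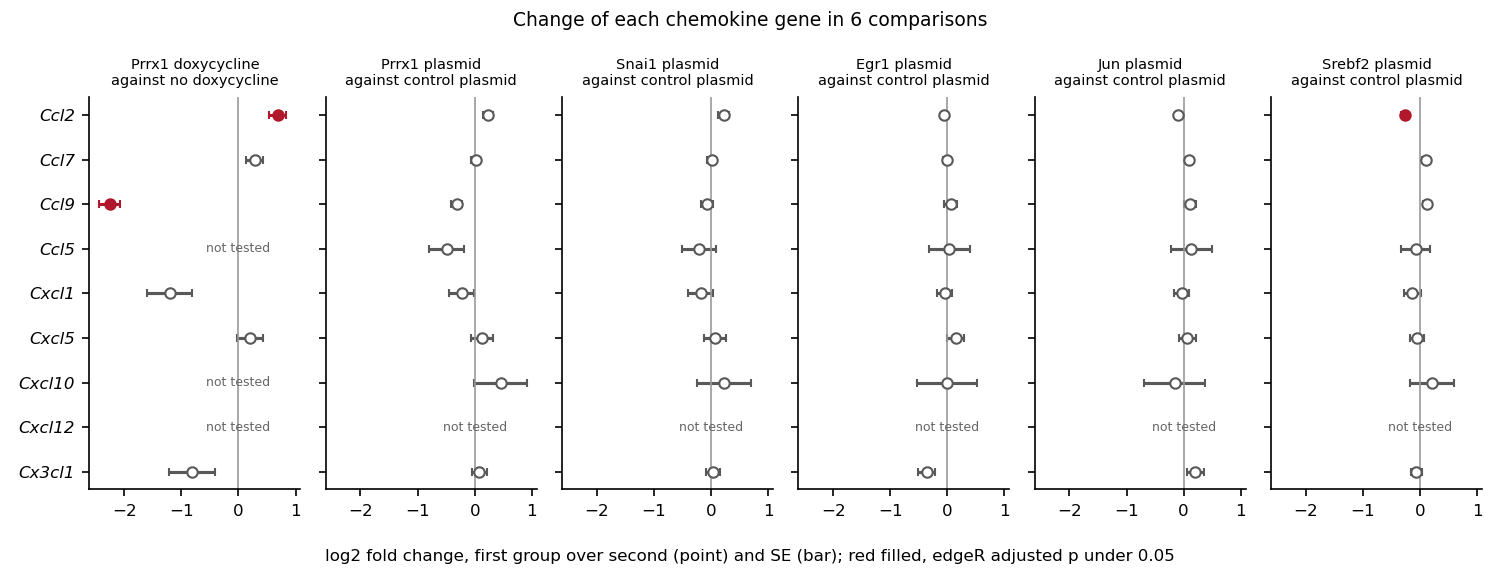
Log2 fold change of each chemokine gene, first-named group over its control (points; bars, SE), in the 6 comparisons with a control; red points passed an edgeR adjusted p under 0.05. Ccl9 at −2.25 and Ccl2 at 0.69 passed with doxycycline and Ccl2 at −0.26 passed with the Srebf2 plasmid.

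Of 66 genes tested in 6 lists around these ligands, 7 (10.6%) passed the test with doxycycline, beside 6.19% of all genes tested. Of 6 other chemokine ligands tested, 0 rose and 1 fell, Mif, a cytokine grouped with chemokines (47.1 CPM with doxycycline and 73.6 CPM with no doxycycline; only 39.5% of its 31-base stretches are unique to it, so its level is uncertain). No chemokine receptor of 5 tested passed with edgeR, and 1 had an unadjusted p under 0.05, as had 18.5% of all genes tested. Of 14 NF-kB subunits and feedback inhibitors, 1 fell, Tnfaip3, a deubiquitinase that restrains NF-kB (25.4 ± 1.32 CPM with doxycycline and 37.5 ± 3.45 CPM with no doxycycline). Of 15 inflammatory genes, 1 rose and 3 fell. Vcam1, an adhesion molecule for white blood cells, rose 1.84-fold to 224 CPM with doxycycline, against 120 CPM with no doxycycline. Ptgs2, the inducible prostaglandin synthase, fell 2.69-fold to 175 CPM with doxycycline, against 465 CPM with no doxycycline. Csf1, the macrophage growth factor, fell 1.48-fold, and Zfp36, which destabilises cytokine mRNA, fell 1.95-fold. Of 20 interferon pathway genes, 0 passed with edgeR and 3 had an unadjusted p under 0.05. Timp3, an inhibitor of metalloproteinases and of Adam17, rose 1.51-fold among 6 protease genes (78.1% unique 31-base stretches). The AP-1 subunit Jun fell by 0.48 and Egr1 by 0.71 on the log2 scale (edgeR adjusted p = 0.0354 and 0.00388).

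The Prrx1 plasmid, which raised Prrx1 further than doxycycline did, gave no call among the 8 members tested, where 3% of 13110 genes were called. Ccl9 averaged 27.7 ± 4.02 CPM with the Prrx1 plasmid and 34.5 ± 1.62 CPM in controls (log2 fold change −0.31 ± 0.10, edgeR adjusted p = 0.121). It was the only member whose groups did not overlap, against 19.7% of all genes tested. Ccl2 averaged 133 ± 11.5 CPM with the Prrx1 plasmid and 113 ± 13.8 CPM in controls (0.23 ± 0.10, adjusted p = 0.224). The unadjusted p was under 0.05 for these 2 genes, both with edgeR and with DESeq2. Without the first control library both were called by edgeR, Ccl2 at 0.35 (adjusted p = 0.00172) and Ccl9 at −0.31 (adjusted p = 0.0301). Calls over all genes rose as well, to 2639 in place of 393. Of the pathway lists, Mif was again the only gene to pass, among 9 other ligands. It fell 1.28-fold, to 345 CPM with the Prrx1 plasmid, against 444 CPM in controls. In the 5 other lists 0 genes passed with edgeR, and 0 to 3 a list had an unadjusted p under 0.05, as had 17.2% of all genes tested.

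The effect of doxycycline minus the effect of the Prrx1 plasmid was tested in 1 fit of both experiments. Ccl9 differed, by −1.94 ± 0.20 on the log2 scale (edgeR adjusted p = 6.95e-06), and was the 1 member of 8 called, where 5.91% of 15378 genes were. The other differences did not pass, at 0.45 ± 0.17 for Ccl2 (adjusted p = 0.148), −0.99 ± 0.40 for Cxcl1 (adjusted p = 0.169) and −0.87 ± 0.32 for Cx3cl1 (adjusted p = 0.122). The 2 experiments also differed in route, depth and in the level reached by Prrx1 (3932 CPM with doxycycline, 15745 CPM with the plasmid), which cannot be told apart here. Doxycycline itself was given in 1 experiment only, and no group received it without the construct.

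The Snai1 plasmid gave no call among 8 members tested, where 1.62% of 13110 genes were called. Ccl2 averaged 132 ± 8.11 CPM with the Snai1 plasmid and 113 ± 13.8 CPM in controls (log2 fold change 0.22 ± 0.10, edgeR adjusted p = 0.258) and was the 1 member with an unadjusted p under 0.05, also with DESeq2. Without the first control library, at 129 CPM, Ccl2 was called (0.34, edgeR adjusted p = 0.00169), where calls over all genes rose to 3062 in place of 212. Prrx1 and Snai1 share these controls, so the 2 values for Ccl2 are not independent. Set directly against the Prrx1 plasmid, the Snai1 plasmid gave 0 calls of 8 members (0.252% of all genes). The lowest p was that of Ccl9, at 32.8 CPM with the Snai1 plasmid and 27.7 CPM with the Prrx1 plasmid (0.25 ± 0.10, edgeR adjusted p = 0.881), and it was the 1 member with an unadjusted p under 0.05, also with DESeq2. None of the 6 pathway lists had a called gene with the Snai1 plasmid; the unadjusted p was under 0.05 for 6 of 20 interferon genes, 4 of 15 inflammatory genes, 1 of 7 protease genes and 0 in the other lists, beside 16.3% of all genes tested.

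The Egr1 plasmid gave no call among 8 members, where 0.323% of 14539 genes were called. Cx3cl1 averaged 6.19 ± 0.404 CPM with the Egr1 plasmid and 7.75 ± 1.38 CPM in controls (log2 fold change −0.36 ± 0.15, edgeR adjusted p = 0.437). It was the 1 member with an unadjusted p under 0.05, also with DESeq2, and the 1 member whose groups did not overlap, against 17.9% of all genes tested. Without the third Egr1 library, which held the epithelial transcripts, the difference was −0.41 (adjusted p = 0.367). Among the 14 NF-kB genes, Nfkbie, an inhibitor of the I kappa B family, rose 1.68-fold to 16.9 CPM with the Egr1 plasmid, against 9.80 CPM in controls (edgeR adjusted p = 0.00189). Tnfaip3 fell 1.31-fold to 14.2 CPM, against 18.1 CPM in controls (edgeR adjusted p = 0.0402). Both were also called without the third Egr1 library, Nfkbie at 0.77 (adjusted p = 0.00318) and Tnfaip3 at −0.40 (adjusted p = 0.0379). The mScarlet reporter sequence held 0.194 to 0.332% of counts with the Egr1 and Jun plasmids and 3.08 to 3.91% in their controls, and its part in these values was not tested.

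The Jun plasmid gave no call among 8 members, where 0.956% of 14539 genes were called, and none had an unadjusted p under 0.05 with edgeR or DESeq2. The largest difference from the controls was that of Cx3cl1, at 8.98 ± 1.67 CPM with the Jun plasmid and 7.75 ± 1.38 CPM in controls (0.20 ± 0.15, edgeR adjusted p = 0.554). Against the Egr1 plasmid, the Jun plasmid gave 0 calls of 8 (0.44% of all genes). Cx3cl1 was 1.47-fold higher there in mean (0.56 ± 0.15, edgeR adjusted p = 0.173), and the groups did not overlap, as for 17.4% of all genes tested. It was the 1 member with an unadjusted p under 0.05, also with DESeq2. Without the third Egr1 library this difference was 0.61 (adjusted p = 0.125). In the pathway lists, 0 genes were called by edgeR with the Jun plasmid. The unadjusted p was under 0.05 for 3 of 11 other ligands, 3 of 9 receptors, 6 of 14 NF-kB genes, 5 of 17 inflammatory genes and 0 of 8 protease genes, beside 15.3% of all genes tested. Of 21 interferon genes, 13 had an unadjusted p under 0.05, all 13 higher with the Jun plasmid, with a list median of 0.51 on the log2 scale and −0.01 over all genes tested. The summed level of the list was 404, 527 and 549 CPM with the Jun plasmid, against 372, 401 and 336 CPM in controls, so the first Jun library was close to the highest control. With the Egr1 plasmid, which shares these controls, the list summed to 527, 413 and 404 CPM, also above them. Its list median was 0.33 on the log2 scale, and 1 of 21 interferon genes had an unadjusted p under 0.05. For Jun directly against Egr1, 1 of 21 had an unadjusted p under 0.05.

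With the Srebf2 plasmid 1 chemokine gene changed, Ccl2. It fell 1.20-fold (log2 fold change −0.26 ± 0.06, edgeR adjusted p = 0.00941), with means of 105 ± 8.81 CPM with the Srebf2 plasmid and 127 ± 8.74 CPM in controls. This was 1 of 8 members, where 17.3% of 12730 genes were called, and 1 member without overlap, where 35.4% of all genes had none. Without the second Srebf2 library Ccl2 was not called (adjusted p = 0.0563), nor with limma on TPM or in a fit of all 30 libraries (adjusted p 0.106 to 0.112). Ccl7 differed by 0.11 ± 0.07 (adjusted p = 0.343) and Ccl9 by 0.12 ± 0.07 (adjusted p = 0.238). The ratio of Ccl2 to Ccl7 in coding TPM was 1.47, 1.21 and 1.06 with the Srebf2 plasmid, against 1.69, 1.57 and 1.58 in controls. All Srebf2 ratios were below all control ratios. The ratio did not overlap its controls in other comparisons either. It was higher with doxycycline (mean 1.41, against 1.07 with no doxycycline). It was also higher with the Prrx1 plasmid (2.55) and the Snai1 plasmid (2.52), against 2.14 in their controls. With the Jun plasmid it was lower (1.61, against 1.87 in controls), and the Egr1 plasmid overlapped those controls. No share over other gene pairs was computed.

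Of 73 genes tested in the 6 lists, 15 (20.5%) passed with the Srebf2 plasmid, beside 17.3% of all genes tested, so the pooled share was near the background. The lists themselves differed. Of 9 other ligands 0 passed, while of 7 protease genes 2 rose and 1 fell. Of 14 NF-kB genes 2 fell and 0 rose, Relb (1.25-fold) and Nfkb2 (1.14-fold; 83.7% unique 31-base stretches), which form the non-canonical NF-kB dimer. Of 15 inflammatory genes 4 fell and 0 rose, among them Lif, a cytokine of the interleukin 6 family, at 27.5 CPM with the Srebf2 plasmid and 37.7 CPM in controls, and Zfp36, at 27.1 CPM with the Srebf2 plasmid and 36.1 CPM in controls. The other 2 were Cebpb (1.18-fold; 80.4% unique) and Csf1 (1.10-fold). Of 21 interferon genes 5 rose and 0 fell, among them the RNA sensor Ddx58 (1.34-fold), Ifi44 (1.69-fold) and Xaf1 (1.37-fold). Both sheddases of Cx3cl1 rose, Adam17 1.20-fold and Adam10 1.12-fold, while Cx3cl1 averaged 13.8 ± 0.953 CPM with the Srebf2 plasmid and 14.6 ± 1.06 CPM in controls. Timp1, a metalloproteinase inhibitor, fell 1.19-fold. The mScarlet sequence held 0.0503 to 0.0589% of counts with the Srebf2 plasmid and 0.855 to 0.995% in controls, and its part in these values was not tested.

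The receptors of these ligands were mostly at very low levels. Of 23 receptor genes, 2 reached a mean of 5 CPM in any group. Ackr3, the scavenging receptor of Cxcl12, had group means of 11.0 to 38.6 CPM, and rose 1.23-fold with the Srebf2 plasmid, to 34.3 CPM against 28.0 CPM in controls (edgeR adjusted p = 0.00692). It was thus read in all groups while Cxcl12 was at 0 in most libraries. Ccr9, the receptor of Ccl25, averaged 11.6 CPM with doxycycline and 12.0 CPM with no doxycycline, and 0.395 to 1.03 CPM in the other 8 groups (78.3% unique 31-base stretches). Of 31 other chemokine ligand genes, 5 reached 5 CPM in any group, namely Mif, Ccl25, Cklf, Ccl8 and Ccl27a, and 3 were at 0 in all libraries.

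The counts of some members were split between coding and non-coding transcripts, unevenly between experiments. For Ccl9, the processed transcript Ccl9-202 held 27.1 to 42.0% of the gene's estimated counts in the 6 transduction libraries and 1.40 to 8.66% in the 24 transfection libraries, without overlap. Within the transduction experiment the mean share was 34.7% with doxycycline and 34.2% with no doxycycline. For Cxcl1, the retained-intron transcript Cxcl1-202 held 20.2 to 75.6% in the transduction libraries and 8.97 to 33.1% in the transfection libraries. For Cxcl5 the retained-intron transcript Cxcl5-202 held 8.46 to 74.9% in the transduction libraries and 6.27 to 56.4% in the transfection libraries. Over all genes, retained-intron transcripts took 5.35 to 6.38% of counts in the transduction libraries and 2.56 to 3.30% in the transfection libraries. The part of this in the levels was not tested across experiments. With protein-coding transcripts alone, the doxycycline difference was −2.25 for Ccl9 (edgeR adjusted p = 0.000282) and 0.70 for Ccl2 (adjusted p = 0.0389), and the same members were called in all comparisons.

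**Figure D4:**
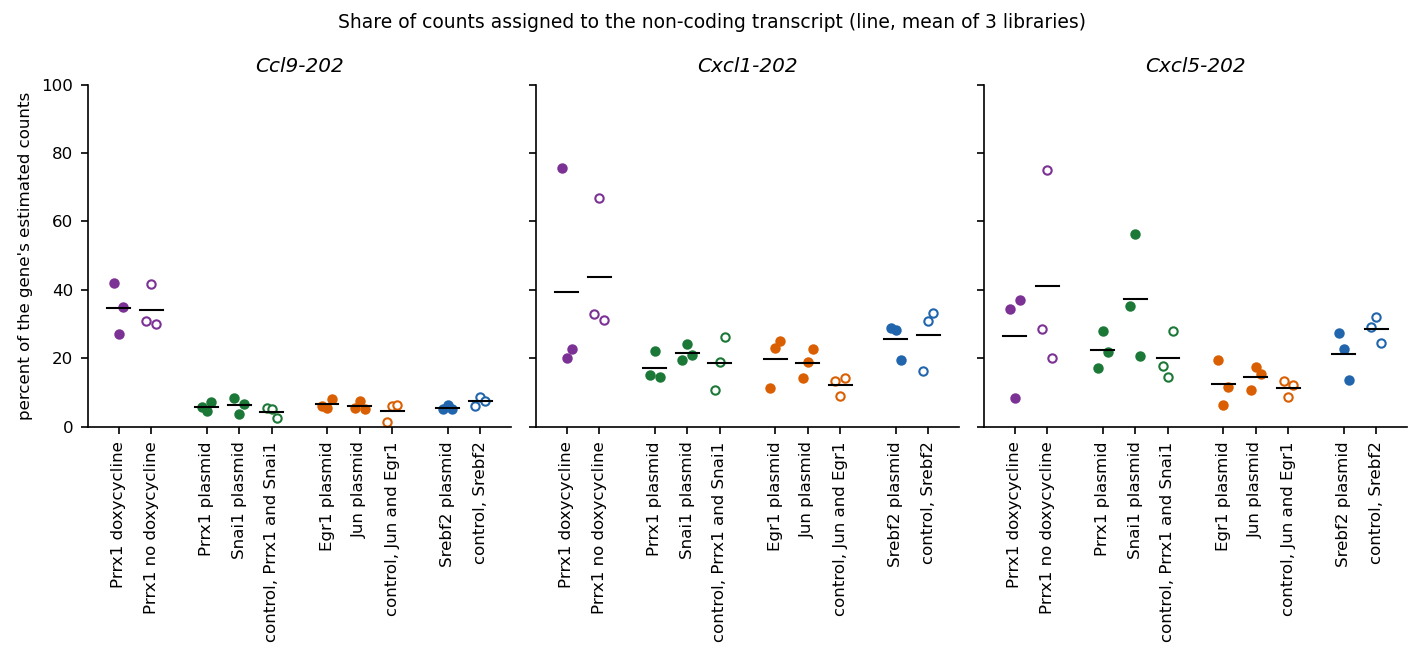
Percent of a gene's estimated counts assigned to its non-coding transcript in each library (filled points, factor or doxycycline; open points, control; line, mean of 3 libraries). Ccl9-202 holds 27.1 to 42.0% in the transduction libraries and at most 8.66% elsewhere, while Cxcl1-202 and Cxcl5-202 scatter widely in all experiments.

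Genes with the most similar pattern over the 10 group means were found by the root mean square difference of mean-centred log2(CPM + 1), among 10017 genes. For Ccl2 these were Ubtd1 (0.0914), Insig1 (0.111) and Prrx2 (0.120), where the median over all genes was 0.895. For Ccl7 they were Ccng2 (0.113), Hgf (0.138) and Trib2 (0.167). Ccl9 had no gene as close, with Medag (0.359), Col3a1 (0.392) and Spsb1 (0.394). Cxcl1 was nearest to C77080 (0.172), Rgmb (0.197) and Fos (0.205), Cxcl5 to Ncoa2 (0.0658), Fam102b (0.0826) and Fam76a (0.0971), and Cx3cl1 to Fhl3 (0.152), Tuba1a (0.165) and Begain (0.172). The groups of 1 experiment share a line, a depth and often their controls, so these are descriptions of 10 points that are not independent.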

How the data were processed

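Each of the 30 libraries has a deposited kallisto table of estimated counts and TPM per transcript. The authors used kallisto 0.43.0 and the build mm10, per the submitters' processing notes; annotation release, strand and read layout are not given in the sources used here. Of 118491 targets, 116816 matched GENCODE M21, 2 were added reporter sequences and 1673 (0.605 to 0.694% of counts) were left out. Deposited estimated counts were summed over each gene's transcripts and rounded for tests. Reads shared by similar transcripts are split by kallisto; the members have 95.5 to 100% unique stretches of 31 bases. Without strand, reads of Cxcl10 and of the overlapping gene Art3 (at most 0.296 CPM) cannot be told apart. CPM is relative to all counts assigned to genes and reporters. Deposited TPM values were summed over protein-coding transcripts for levels between genes.

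Differences were tested with edgeR 4.0.16 under R 4.3.3 (quasi-likelihood F test, TMM, filterByExpr with minimum count 10 and minimum total 15), 1 fit for each experiment with all genes, Benjamini-Hochberg over all genes tested, two-sided, and a call at adjusted p under 0.05. Fold changes used a prior count of 0.125. The scripts were tested on simulated data. Members, gene lists and motifs were chosen with earlier results of these data known. The genes named are the members, the delivered factor, up to 4 called genes a list and comparison (smallest adjusted p first), list genes with a mean of at least 5 CPM, and the 3 nearest genes to each member with at least 5 CPM; 1 gene that this rule names is not reported here. Alternatives were DESeq2 1.42.0, limma 3.58.1 on log2(TPM + 1) and log2(TPM + 0.1) with a mean TPM of at least 1, RLE factors, no filter, a filter of 5 CPM in 3 libraries, other samples in the fit, a replicate block and leaving out each library; protein-coding transcripts alone was chosen after seeing the data. Replicate pairs differed beyond counting noise (mean chi-square per gene 3.63 to 47.1), so no library was counted as a duplicate. Replicate numbers paired the libraries weakly at most, and the main fits had no replicate term.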

Additional observations from a re-analysis of the deposited data

Results flagged for a closer look

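Among the members and the 6 pathway lists, 9 genes had an effect of doxycycline that differed from that of the Prrx1 plasmid, by a test of the difference itself on the log2 scale (edgeR, adjusted over all 15378 genes tested, of which 909 or 5.91% were called). Among the members this was Ccl9, at −1.94 (adjusted p = 6.95e-06). The chemokine Ccl8 differed by 2.27 (adjusted p = 0.0120). It had 4.53, 1.86 and 1.44 CPM with doxycycline (2.61 ± 1.68, SD), against 0.470, 0.710 and 0.637 CPM with no doxycycline. Ccl8 was not called in the doxycycline comparison itself, where 0 of 6 other ligands tested rose. Vcam1 differed by 1.10 (adjusted p = 1.35e-05), Timp3 by 0.91 (adjusted p = 0.000634) and Mmp2, a metalloproteinase that cleaves chemokines, by 0.39 (adjusted p = 0.0462). Ptgs2 differed by −1.27 (adjusted p = 0.0181), Zfp36 by −0.89 (adjusted p = 0.0203), Tnfaip3 by −0.66 (adjusted p = 0.0241) and Csf1 by −0.49 (adjusted p = 0.0369). Nfkbie differed between the Jun and Egr1 plasmids, which share controls, by −0.77 (edgeR adjusted p = 0.00117), at 9.75 CPM with the Jun plasmid and 16.9 CPM with the Egr1 plasmid. Without the third Egr1 library it differed by −0.79 (adjusted p = 0.00211).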

How the results depend on the processing

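Counts of called members changed as follows, and the cause was not tested. With doxycycline (2 called), limma on log2(TPM + 1) and on log2(TPM + 0.1) called 1 each, the fit of all 30 libraries called 4, and leaving out 1 library gave 1 to 2. With the Prrx1 plasmid (0), no filter gave 1 (Ccl9, adjusted p = 0.0379) and leaving out 1 library 0 to 2. With the Snai1 plasmid (0), leaving out 1 library gave 0 to 1. With the Srebf2 plasmid (1), both limma fits and the fit of all libraries gave 0 (Ccl2, adjusted p 0.106 to 0.112), and leaving out 1 library 0 to 1. For doxycycline minus the Prrx1 plasmid (1), the replicate block gave 2, limma on log2(TPM + 0.1) 2 and the fit of all libraries 3. In the Egr1 and Jun comparisons and the 2 direct ones, no alternative called a member. No called member changed sign. Pairing by replicate number was weak at most (correlations −0.21 to 0.21). The 6 of 24 over 0.1 were all in the transduction and the Prrx1 and Snai1 experiments. With the replicate block the called members were 2 with doxycycline, 1 with the Srebf2 plasmid and 0 with the other plasmids. All-gene calls were then 23 in place of 47 for Egr1 and 71 in place of 139 for Jun. They were 34 in place of 64 for Jun against Egr1, and 29 in place of 33 for Snai1 against Prrx1. Calls rose to 290 in place of 212 for Snai1 and 401 in place of 393 for the Prrx1 plasmid. They also rose to 2295 in place of 2204 for Srebf2, and 1058 in place of 909 for doxycycline minus the Prrx1 plasmid. Doxycycline gave 843 in place of 844. With limma on TPM the median of all genes shifted by 0.14 to 0.16 for Egr1 and Jun, and 98.7% and 97.7% of calls were higher, in place of 63.8% and 47.5%. Over all alternatives, all-gene calls ranged from 156 to 2728 with doxycycline (main 844), 106 to 2639 with the Prrx1 plasmid (393), 46 to 3062 with Snai1 (212), 10 to 1277 with Egr1 (47), 29 to 2220 with Jun (139), 568 to 2513 with Srebf2 (2204), 5 to 74 for Snai1 against Prrx1 (33), 8 to 229 for Jun against Egr1 (64) and 423 to 1853 for doxycycline minus the Prrx1 plasmid (909). Depth limits Ccl5, Cxcl10 and Cxcl12 most.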
